A study of Mus musculus with 10 samples.

Results

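Transcripts of 10 genes of the BMP pathway were followed in colon tumors of mice: the ligands Bmp2, Bmp4 and Bmp7, the type I receptor Bmpr1a, the antagonists Grem1, Bambi and Smad6, and the target genes Id1, Id2 and Id3. They were taken by name from the 16875 gene names of the expression table, in which all 10 were present and all 10 passed the filter on low values. Tumors had been induced with azoxymethane (AOM), a carcinogen, followed by 3 cycles of 2% dextran sodium sulfate (DSS), which inflames the colon, in mice aged 6 to 10 weeks at the start. The 5 control tumors carried Wls flox/flox, that is, both Wls alleles flanked by loxP sites. The 5 Villin-WlscKO tumors carried the same floxed alleles and Villin-Cre ERT2, a tamoxifen-inducible recombinase expressed in intestinal epithelium. Wls is needed to export Wnt proteins, so Wnt secretion was blocked in epithelial cells while stromal cells kept the gene. Mice of the Villin-WlscKO group received 5 injections of tamoxifen at 80 mg/kg, the first 30 days before collection. Per the study's text, controls had no tamoxifen unless otherwise stated, so that the deletion, Cre and tamoxifen cannot be told apart. Tumors were macrodissected whole about 4 months after AOM and hold epithelium, stroma and immune cells. The number of mice is not given in the sources used here, so n counts tumors, and p-values measure the spread between these tumors.

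Bone morphogenetic proteins (BMPs) are secreted ligands that join type I receptors such as Bmpr1a to type II receptors, which leads to phosphorylation of Smad1, Smad5 and Smad9. These enter the nucleus with Smad4 and switch on target genes, among them Id1, Id2 and Id3, which encode inhibitors of basic helix-loop-helix factors, and Smad6, which feeds back on the receptors. In the normal colon, BMP signaling is strongest toward the crypt top, where it favors differentiation, while Grem1 and other antagonists made by cells beneath the crypt keep it low around the stem cells.

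Before any result on these genes, the tumors were compared with their labels. Wls lay between 61.3 and 79.9 FPKM (fragments mapped to a gene, scaled by transcript length and by the reads mapped in the library) in control tumors and between 2.03 and 11.7 FPKM in Villin-WlscKO tumors. Xist lay between 439 and 701 FPKM in every Villin-WlscKO tumor and at most at 0.420 FPKM in controls. Eif2s3y, on the Y chromosome, lay between 30.4 and 46.6 FPKM in controls and at most at 0.138 FPKM in the other group, so that sex and genotype cannot be told apart. Villin-WlscKO tumors 2 and 3 stood apart, with 469.5 and 669 FPKM of the squamous keratin Krt5 against at most 0.315 FPKM in the other 8 tumors, and the differences of the 10 genes were also computed without them. They also held the most Wls of their group, at 11.6 and 11.7 FPKM, against 2.03 to 3.61 FPKM in Villin-WlscKO tumors 1, 4 and 5. Epithelial markers were high in all 10 tumors, with summed levels of 8 epithelial markers between 5980 and 8420 FPKM in controls and between 7223 and 9234 FPKM in Villin-WlscKO tumors. The most abundant of them, Krt19 (means of 3027 and 3504 FPKM), shares all its values with the names Krt13 and Krt17. Read depth is unknown, since the table holds FPKM only.

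Transcripts of 5 of the 10 genes were lower in Villin-WlscKO tumors, namely Bambi, Smad6, Id1, Id2 and Id3, and none was higher (limma, Benjamini-Hochberg adjusted p under 0.05). Over all 16757 genes tested, 10.9% passed in either direction, 4.75% as lower and 6.12% as higher. The same 5 genes were those in which no Villin-WlscKO tumor reached the lowest control tumor, a pattern that 10.1% of all genes showed in either direction, 4.76% as lower and 5.33% as higher. The 3 ligands, the receptor and Grem1 did not pass. The median log2 difference over the 10 genes was -0.38, against 0.0073 over all genes tested. The difference was below 0 in 9 of the 10 genes, against 48.6% of all genes tested. In whole tumors, fewer cells that express a gene and less RNA per cell cannot be told apart. The plot of all 10 genes by tumor shows the called genes beside the ligands and the receptor.

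**Figure D1:**
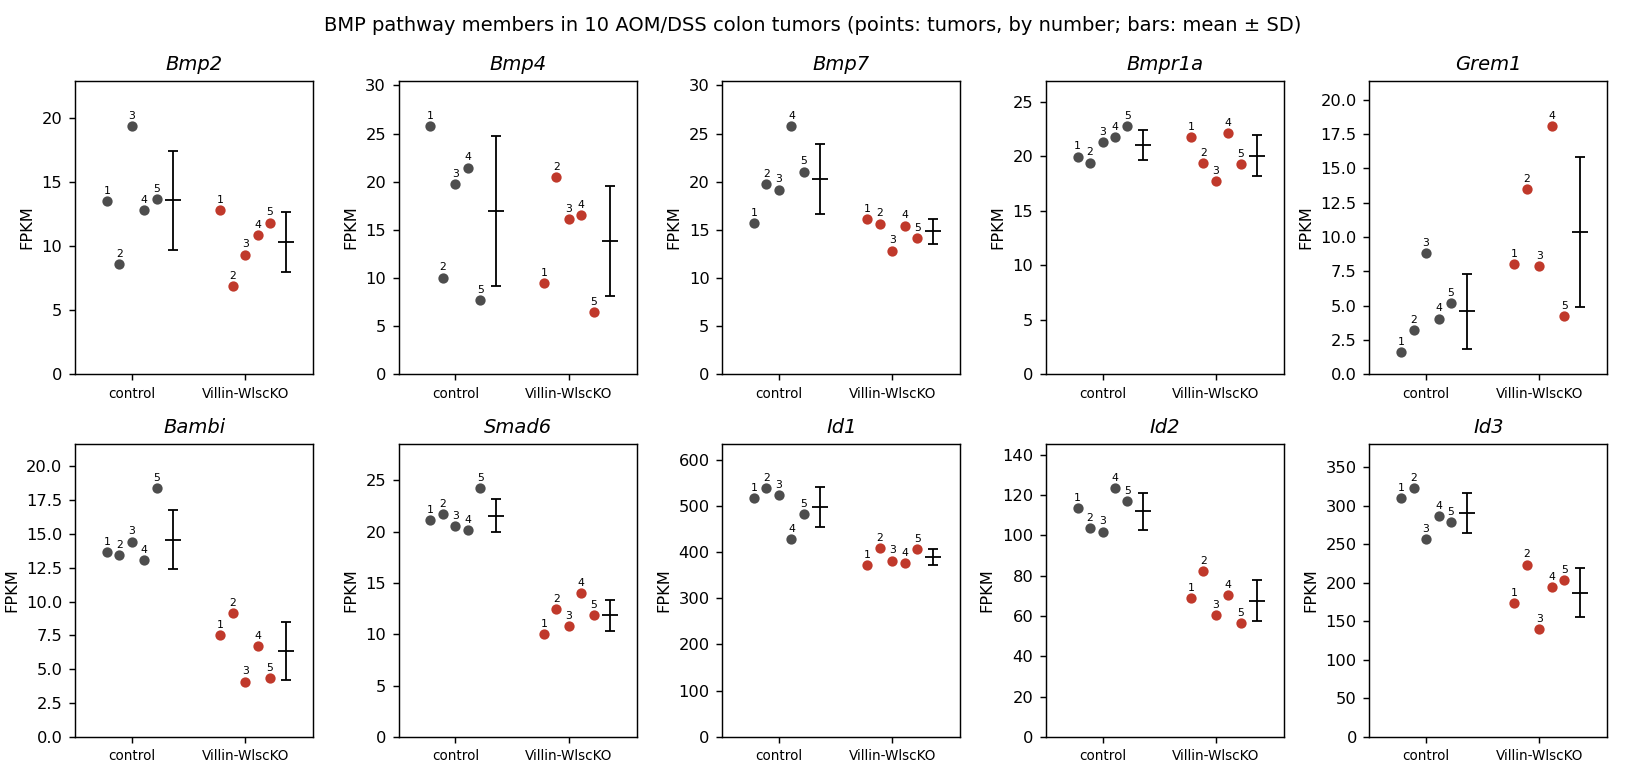
Each panel plots the FPKM of 1 gene (y axis, from 0) in 5 control tumors (grey) and 5 Villin-WlscKO tumors (red), numbered by replicate, with the group mean and SD drawn to the right of the points. In the panels of Bambi, Smad6, Id1, Id2 and Id3 every red point lies below every grey point, while Bmp2, Bmp4, Bmp7, Bmpr1a and Grem1 overlap.

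Promoter sequence is shown for 2 genes, Smad6, which fell, and Grem1, which did not pass, because BMP-activated Smads are known to bind the letters GGCGCC and the letters GGAGCC. Both motifs were searched on both strands (GGCGCC is its own reverse complement, and GGAGCC reads GGCTCC on the other strand), and by their letters no match of one can overlap a match of the other. They were sought in the 250 bases before each RefSeq gene start (GRCm38.p6), in 6 of the 10 genes. Id1, Bmp2 and Bmp7 had no entry, and Bambi was left out of the search. The windows of Bmpr1a, Id2 and Id3 lie within the gene as GENCODE places it, downstream of its first base, and their matches are not described. Of the remaining 3 windows, which lie wholly before the gene, that of Grem1 held GGCGCC, found in 9.59% of all 32851 windows, and those of Bmp4 and Smad6 held GGAGCC, found in 26.0% of them. The lines give the strand of the gene from 5′ to 3′, here the minus strand for both, with matches in capitals. In Smad6, at chr9:64022060-64022309, GGAGCC lay 102 to 97 and 18 to 13 bases before the start. In Grem1, at chr2:113758649-113758898, GGCGCC lay 78 to 73 bases before the start. A match says that these letters are present and nothing about binding in these tumors.
Smad6: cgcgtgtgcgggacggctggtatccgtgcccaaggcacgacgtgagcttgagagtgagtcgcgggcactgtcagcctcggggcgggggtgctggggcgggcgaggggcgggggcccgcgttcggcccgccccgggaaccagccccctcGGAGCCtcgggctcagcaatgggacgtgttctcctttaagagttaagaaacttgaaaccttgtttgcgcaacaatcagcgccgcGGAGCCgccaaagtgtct
Grem1: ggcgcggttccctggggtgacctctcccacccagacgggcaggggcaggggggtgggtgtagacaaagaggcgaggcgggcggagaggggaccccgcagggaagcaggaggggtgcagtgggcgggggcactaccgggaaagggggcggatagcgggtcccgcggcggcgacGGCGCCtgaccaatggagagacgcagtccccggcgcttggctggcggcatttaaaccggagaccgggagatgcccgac

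The ligands Bmp2, Bmp4 and Bmp7 did not pass the threshold, and the overlap between groups was wide for Bmp2 and Bmp4. Bmp2 (chromosome 2, 133552159 to 133562885, plus strand, GRCm38 as are all positions here) encodes a ligand made by differentiated colon epithelium and by stroma. It was at 13.5, 8.58, 19.4, 12.8 and 13.6 FPKM in control tumors 1 to 5 and at 12.8, 6.87, 9.34, 10.8 and 11.8 FPKM in Villin-WlscKO tumors 1 to 5. Only the lowest Villin-WlscKO tumor lay below every control. Means were 13.6 ± 3.86 and 10.3 ± 2.32 FPKM (SD, n = 5 each), a log2 difference of -0.35 with a 95% interval from -0.80 to 0.10 (limma adjusted p = 0.318).

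Bmp4 (chromosome 14, 46383520 to 46390669, minus strand) encodes the main ligand of the stroma around the crypts. It was at 25.8, 10.04, 19.7, 21.5 and 7.68 FPKM in control tumors 1 to 5 and at 9.47, 20.5, 16.1, 16.6 and 6.43 FPKM in Villin-WlscKO tumors 1 to 5. It was the most variable of Bmp2, Bmp4 and Bmp7, with a coefficient of variation of 45.7% in controls and 41.4% in Villin-WlscKO tumors, and high and low tumors occurred in both groups. Means were 16.9 ± 7.75 and 13.8 ± 5.71 FPKM (SD, n = 5 each), a log2 difference of -0.25 with a 95% interval from -1.08 to 0.58 (limma adjusted p = 0.733). The 3 tumors with the smallest summed level of 8 fibroblast markers were control 5 with 289 FPKM, control 2 with 292 FPKM and Villin-WlscKO 5 with 389 FPKM, and they were among the 4 tumors with least Bmp4. Other tumors did not follow this order. Control 1, with 506 FPKM of these markers, held the most Bmp4 of all tumors, at 25.8 FPKM. Villin-WlscKO 1, with 622 FPKM of them, held 9.47 FPKM of Bmp4. The part of stromal content in the level of Bmp4 was not tested. Genes named Gm15217 and Gm15222 overlap Bmp4 on the other strand, and whether reads were counted by strand is not given in the sources used here.

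Bmp7 (chromosome 2, 172868012 to 172940321, minus strand) encodes a ligand that pairs with Bmp2 or Bmp4 as well as with itself. It was at 15.7, 19.8, 19.2, 25.8 and 21.0 FPKM in control tumors 1 to 5 and at 16.1, 15.6, 12.8, 15.4 and 14.1 FPKM in Villin-WlscKO tumors 1 to 5. All but the first Villin-WlscKO tumor lay below every control, and control tumor 1 lay within the range of the other group. Means were 20.3 ± 3.67 and 14.8 ± 1.34 FPKM (SD, n = 5 each), a log2 difference of -0.42 (SE 0.12), which just missed the threshold (limma adjusted p = 0.0518, exact permutation p = 0.0159, two-sided, unadjusted). Leaving out control tumor 1 gave -0.50 (adjusted p = 0.0188), and 5 of 20 alternatives brought it past the threshold. Equal scaling of the FPKM sums moved it the other way (-0.32, adjusted p = 0.219).

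The receptor gene Bmpr1a (chromosome 14, 34410734 to 34503341, minus strand, overlapped by the antisense gene Gm17110) had the smallest difference between groups of the 10. It was at 19.97, 19.4, 21.3, 21.8 and 22.8 FPKM in control tumors 1 to 5 and at 21.8, 19.4, 17.7, 22.1 and 19.3 FPKM in Villin-WlscKO tumors 1 to 5. The groups overlapped, with coefficients of variation of 6.49% in controls, the smallest of the 10 genes, and 9.21% in Villin-WlscKO tumors. The log2 difference was -0.068 with a 95% interval from -0.24 to 0.11 (limma adjusted p = 0.645), and it turned to 0.033 with equal FPKM sums and to 0.0013 without Villin-WlscKO tumors 2 and 3. Taken per Bmpr1a within each tumor, Smad6 was at 0.927 to 1.12 in controls and 0.460 to 0.642 in Villin-WlscKO tumors, and Bambi was at 0.601 to 0.805 and 0.224 to 0.472. Both ratios, of FPKM to FPKM and therefore free of the scaling between tumors, kept the groups apart. Id1 per Bmpr1a did not, at 19.7 to 27.7 in controls and 17.0 to 21.5 in Villin-WlscKO tumors.

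Grem1 (chromosome 2, 113746164 to 113758646, minus strand) encodes gremlin 1, a secreted protein that binds BMP2, BMP4 and BMP7 and keeps them from their receptors. It was the only gene of the 10 with a higher mean in Villin-WlscKO tumors. It was at 1.58, 3.23, 8.83, 4.04 and 5.16 FPKM in control tumors 1 to 5 and at 7.999, 13.5, 7.86, 18.1 and 4.21 FPKM in Villin-WlscKO tumors 1 to 5. Villin-WlscKO tumors 2 and 4 lay above every control, and the other 3 lay within the control range. Means were 4.57 ± 2.72 and 10.3 ± 5.47 FPKM (SD, n = 5 each), a ratio of 2.26, and the log2 difference of 1.02 had a 95% interval from 0.13 to 1.91. It did not pass (limma adjusted p = 0.138, exact permutation p = 0.0714, two-sided, unadjusted). None of 20 alternatives brought it past the threshold, with adjusted p from 0.0641 to 0.306. Coefficients of variation of 59.5% and 52.9% were the largest of the 10 genes in both groups.

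Grem1 is made by fibroblasts and smooth muscle of the muscularis mucosae, and the levels of these cells were set beside it. None of 8 fibroblast markers and none of 7 smooth muscle markers passed the test. In the fibroblast list, Col3a1, the most abundant, shares its values with the name AC125167.1, and Pdgfra with Mir7025. Summed levels were 289 to 1038 FPKM in controls and 389 to 1166 FPKM in Villin-WlscKO tumors for the fibroblast list, and 65.5 to 151 FPKM and 83.6 to 163 FPKM for the smooth muscle list. Grem1 per 1000 FPKM of the fibroblast list was 3.12 to 17.8 in controls and 10.8 to 29.0 in Villin-WlscKO tumors, and per 1000 FPKM of the smooth muscle list 24.1 to 58.3 and 38.8 to 111. The groups overlapped in both ratios. The summed level of Bmp2, Bmp4 and Bmp7 was 38.4 to 60.1 FPKM in controls and 32.4 to 43.0 FPKM in Villin-WlscKO tumors. Set against Grem1 in the same tumor, it was 6.61 to 34.9 with a median of 11.9 in controls and 2.37 to 7.69 with a median of 4.80 in Villin-WlscKO tumors, and the groups overlapped only through Villin-WlscKO tumor 5 and control tumor 3. No test was made on these ratios, since they combine genes whose values were already known.

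**Figure D2:**
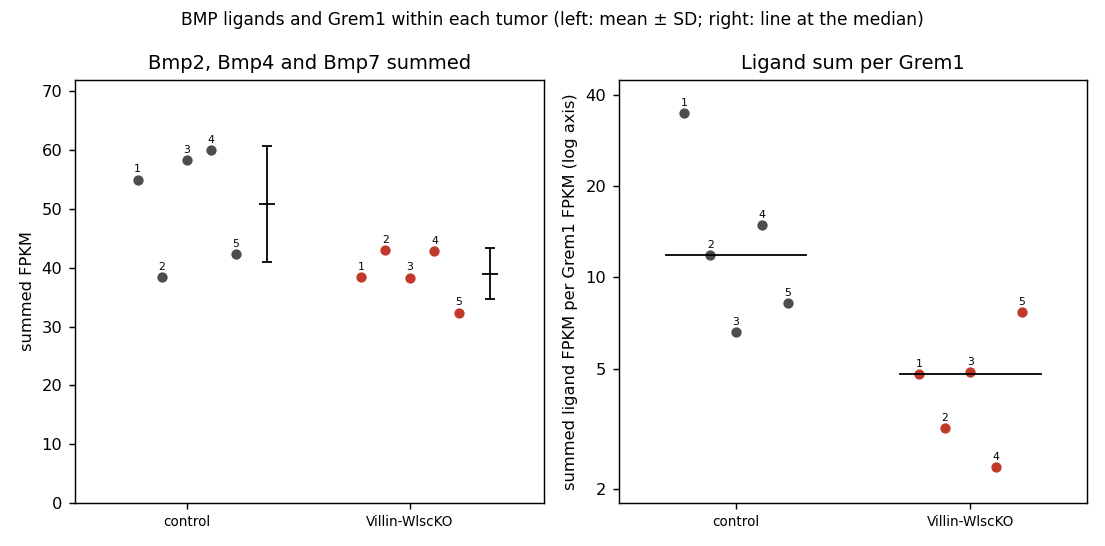
The left panel plots the summed FPKM of Bmp2, Bmp4 and Bmp7 in each tumor with the mean and SD beside the points, and the right panel plots that sum divided by the FPKM of Grem1 on a log axis with a line at the group median. The sums overlap between the groups, while the ratio has medians of 11.9 in controls and 4.80 in Villin-WlscKO tumors, with only Villin-WlscKO tumor 5 above the lowest control.

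Bambi and Smad6, which hold BMP signaling back at the cell surface and inside the cell, both fell, with all 5 Villin-WlscKO tumors under the control range. Bambi (chromosome 18, 3507923 to 3516404, plus strand) encodes a pseudoreceptor that resembles a type I receptor without its kinase, and is known as a target of BMP, TGF-beta and beta-catenin signaling. It was at 13.7, 13.4, 14.4, 13.1 and 18.4 FPKM in control tumors 1 to 5 and at 7.52, 9.16, 4.09, 6.72 and 4.32 FPKM in Villin-WlscKO tumors 1 to 5. The highest Villin-WlscKO tumor stayed below the lowest control. The mean fell by 56.4%, from 14.6 ± 2.17 to 6.36 ± 2.16 FPKM (SD, n = 5 each), with a log2 difference of -1.12 (SE 0.19, limma adjusted p = 0.00518). This was the largest fall of the 10 genes on the log2 scale.

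Smad6 (chromosome 9, 63953076 to 64022059, minus strand), whose promoter is shown above, encodes an inhibitory Smad that competes with receptor-activated Smads and leads receptors to degradation. It was at 21.1, 21.7, 20.5, 20.2 and 24.2 FPKM in control tumors 1 to 5 and at 10.02, 12.45, 10.8, 14.0 and 11.8 FPKM in Villin-WlscKO tumors 1 to 5. The groups were separated by a wide gap, between 14.0 and 20.2 FPKM. The mean fell by 45.1%, from 21.5 ± 1.61 to 11.8 ± 1.55 FPKM (SD, n = 5 each), with a log2 difference of -0.82 (SE 0.094, limma adjusted p = 0.000473), the smallest adjusted p of the 10. The exact permutation p was 0.00794 for each of Bambi, Smad6, Id1, Id2 and Id3 (two-sided, unadjusted), the smallest that the arrangements of 5 against 5 tumors can give.

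The Id genes, classical direct targets of BMP-activated Smads, were all lower in Villin-WlscKO tumors, and whether the falls of Id1, Id2 and Id3 differed in size was not tested. They encode proteins that bind E proteins and keep them from DNA. Per length they were the most abundant of the 10, with Id1 highest, then Id3, then Id2, in every one of the 10 tumors. Id1 (chromosome 2, 152736251 to 152737410, plus strand) was at 517, 538, 523, 429 and 482 FPKM in control tumors 1 to 5 and at 372, 409, 381, 376 and 407 FPKM in Villin-WlscKO tumors 1 to 5. The groups nearly touched, with control tumor 4 at 429 FPKM and Villin-WlscKO tumor 2 at 409 FPKM. The mean fell by 21.9%, from 498 ± 43.8 to 389 ± 17.6 FPKM (SD, n = 5 each), with a log2 difference of -0.35 (SE 0.075, limma adjusted p = 0.0147). Id1 lost the call with equal FPKM sums (-0.25, adjusted p = 0.131) and without Villin-WlscKO tumors 2 and 3 (-0.37, adjusted p = 0.0581), and kept it in the other 18 of 20 alternatives.

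Id2 (chromosome 12, 25093799 to 25097140, minus strand) was at 114, 104, 102, 123 and 117 FPKM in control tumors 1 to 5 and at 68.9, 82.2, 60.4, 70.5 and 56.5 FPKM in Villin-WlscKO tumors 1 to 5. The groups lay apart, between 82.2 and 102 FPKM. The mean fell by 39.5%, from 112 ± 9.04 to 67.7 ± 9.96 FPKM (SD, n = 5 each), with a log2 difference of -0.73 (SE 0.10, limma adjusted p = 0.00162). Id3 (chromosome 4, 136143497 to 136145755, plus strand) was at 310, 322, 257, 287 and 279 FPKM in control tumors 1 to 5 and at 174, 224, 140, 194 and 203 FPKM in Villin-WlscKO tumors 1 to 5. Villin-WlscKO tumor 2 was the nearest to the controls and tumor 3 the farthest. The mean fell by 35.8%, from 291 ± 25.9 to 187 ± 31.8 FPKM (SD, n = 5 each), with a log2 difference of -0.65 (SE 0.12, limma adjusted p = 0.00755).

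The 3 Id transcripts together had a sum of 901 ± 51.0 FPKM in controls, against 643 ± 50.6 FPKM in Villin-WlscKO tumors (SD, n = 5 each). Id1 made up 51.1% to 59.3% of that sum in controls and 57.2% to 65.6% in Villin-WlscKO tumors, and these ranges overlap. Id4, the remaining member of the family, was at 2.195 FPKM in controls and 2.253 FPKM in Villin-WlscKO tumors and did not pass (limma adjusted p = 0.903). The plot of differences sets the 10 genes beside all genes tested.

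**Figure D3:**
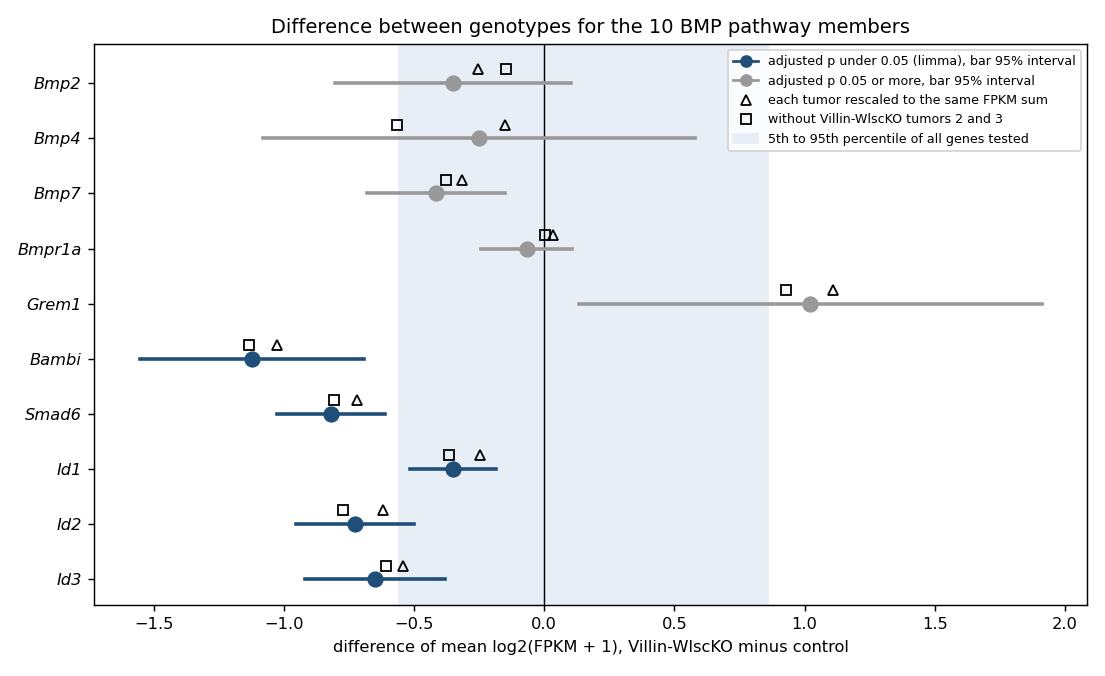
For each gene the filled circle gives the Villin-WlscKO mean of log2(FPKM + 1) less the control mean, with its 95% interval, in blue where the limma adjusted p was under 0.05 and in grey otherwise. Open triangles give the difference after equal scaling of the FPKM sums, open squares the difference without Villin-WlscKO tumors 2 and 3, and the shaded band the 5th to 95th percentile of all genes tested (-0.56 to 0.86). Bambi, Smad6, Id2 and Id3 lie left of the band, Id1 lies within it, and Grem1 lies right of it with a wide interval.

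Calls for Bambi, Smad6, Id2 and Id3 held in all 20 alternatives with a p, including the one without the pair of tumors rich in Krt5, where the log2 differences were -1.14, -0.81, -0.77 and -0.61. Markers of other cells are given beside these values, with 10.9% of all genes called in either direction and 6.12% as higher. Among 6 T cell markers, 4 were higher in Villin-WlscKO tumors (Cd3e, Cd3d, Cd3g and Cd8a), with summed levels of 6.37 to 13.8 FPKM in controls and 13.6 to 34.3 FPKM in Villin-WlscKO tumors. Of 5 B and plasma cell markers tested, 1 was higher (Mzb1), with sums of 26.6 to 127 FPKM and 68.4 to 355 FPKM. Of 7 squamous markers tested, 1 was higher (Sprr1a), with sums of 94.0 to 232 FPKM and 117 to 1454 FPKM. None of the tested epithelial, fibroblast, smooth muscle, endothelial, macrophage, neutrophil and erythrocyte markers passed in limma. Neutrophil sums were 225 to 750 FPKM in controls and 579 to 1205 FPKM in Villin-WlscKO tumors. The part of these cells in the lower Id, Bambi and Smad6 levels was not tested.

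Further genes of the pathway were described from lists by role, 62 genes beside the 10, of which 48 were in the table and 47 were tested. Of these, 7 were lower and 2 were higher, 19.1% in either direction. Over all genes tested, 10.9% passed in either direction, 4.75% as lower and 6.12% as higher, the shares to set beside each list below. The median log2 difference of the 47 genes was -0.19. None of the 5 other BMP ligands tested passed. Bmp5, the most abundant of them, had means of 7.72 FPKM in controls and 4.24 FPKM in Villin-WlscKO tumors (adjusted p = 0.186). Among 9 receptors and co-receptors, Rgma and Rgmb, which encode membrane-anchored co-receptors that bind BMPs, were higher. Rgma was at 0.456 to 1.26 FPKM in controls and 1.47 to 4.75 FPKM in Villin-WlscKO tumors, without overlap (log2 difference 1.12, adjusted p = 0.00843). Rgmb was at 5.196 to 10.2 FPKM and 10.1 to 15.1 FPKM (0.60, adjusted p = 0.0467), and its call was lost on leaving out any tumor but control 5, with adjusted p up to 0.103, and also with equal FPKM sums (adjusted p = 0.0613), with tumor quality weights (adjusted p = 0.0735) and without Villin-WlscKO tumors 2 and 3 (adjusted p = 0.10), so that 7 of 20 alternatives kept it. Neo1, the receptor for both and the most abundant of the list, was at 13.4 and 13.5 FPKM (adjusted p = 0.984). The type II receptor Bmpr2 was at 10.9 and 8.56 FPKM (adjusted p = 0.0794). Acvr1, at 13.2 and 10.7 FPKM (limma adjusted p = 0.0742), and Acvr2b, at 3.62 and 2.67 FPKM (limma adjusted p = 0.0532), did not pass. In both, every Villin-WlscKO tumor lay below every control, a pattern that 4.76% of all genes showed.

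Among 13 secreted antagonists and modulators tested, Nbl1, which encodes a BMP-binding protein of the same family as gremlin, was the only one past the threshold. It was at 56.0, 38.5, 34.2, 33.4 and 30.9 FPKM in control tumors 1 to 5 and at 20.9, 24.5, 29.4, 12.7 and 15.3 FPKM in Villin-WlscKO tumors 1 to 5, a log2 difference of -0.90 (limma adjusted p = 0.0308). The groups did not overlap, but the call was lost without any one of control tumors 1, 2 and 4 and Villin-WlscKO tumors 1, 4 and 5 (adjusted p from 0.0535 to 0.0704). Twsg1, the most abundant of the list and a modulator of BMP binding to chordin, was at 36.3 and 31.7 FPKM (adjusted p = 0.342). Chrdl2 just missed the threshold with a higher mean, 0.508 FPKM in controls and 1.43 FPKM in Villin-WlscKO tumors (log2 difference 0.74, limma adjusted p = 0.0501). Nog had a lower mean and did not pass, at 0.812 and 0.255 FPKM (-0.52, limma adjusted p = 0.0730).

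Of 12 Smads and intracellular regulators, Smad7, Ski and Tob2 were lower. Smad7, the other inhibitory Smad, fell from 35.5 ± 3.23 to 19.7 ± 3.16 FPKM (SD, n = 5 each), a log2 difference of -0.83 (limma adjusted p = 0.00118), close in size to Smad6. Tob2, of a family that dampens BMP Smads, fell from 18.1 to 13.5 FPKM (adjusted p = 0.00609), and lost the call only with equal FPKM sums (adjusted p = 0.0907). Ski, a corepressor that binds Smads, fell from 24.5 to 19.5 FPKM (adjusted p = 0.0234), and its call was lost with equal FPKM sums (adjusted p = 0.263) and without any one of control tumors 2, 4 and 5 or Villin-WlscKO tumor 5 (adjusted p from 0.0520 to 0.0583). The signal carriers themselves did not pass. Smad1 was at 31.0 FPKM in both groups (adjusted p = 0.998), Smad5, which shares its values with Gm27301, at 19.7 and 16.4 FPKM (adjusted p = 0.0742), Smad9 at 1.28 and 0.723 FPKM (adjusted p = 0.0863), and Smad4, the most abundant of the list, at 51.5 and 63.1 FPKM (adjusted p = 0.217).

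Among 5 other BMP target genes tested, the homeobox gene Dlx3 was lower. It was at 8.29 to 16.5 FPKM in controls and 1.40 to 3.82 FPKM in Villin-WlscKO tumors, a log2 difference of -1.66 (limma adjusted p = 0.00156). Msx1, the most abundant of them, was at 14.7 and 6.61 FPKM and overlapped widely between groups (adjusted p = 0.263). Of the 3 genes for E proteins, the partners that Id proteins bind, Tcf4 fell from 82.4 ± 11.6 to 43.3 ± 4.53 FPKM (SD, n = 5 each; adjusted p = 0.000519) and Tcf12 fell from 79.3 ± 12.8 to 44.2 ± 5.88 FPKM (SD, n = 5 each; adjusted p = 0.00200). Tcf3 was at 78.7 and 66.4 FPKM (adjusted p = 0.0742). Tcf4 here is the E protein gene, not Tcf7l2, the Wnt effector that shares the older name. Calls for Smad7, Dlx3, Tcf4 and Tcf12 held in all 20 alternatives, and that for Rgma in all 19 that kept the gene.

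In the sister branch of TGF-beta and activin, 2 of 15 genes tested were lower and none was higher, with a median log2 difference of -0.10. These 2 were 13.3% of the branch, against 10.9% of all genes in either direction and 4.75% as lower. The receptor gene Tgfbr1 had a log2 difference of -0.35 (limma adjusted p = 0.0357) and Smad2 one of -0.27 (adjusted p = 0.0266). Both calls were lost with equal FPKM sums (adjusted p = 0.213 and 0.282) and without Villin-WlscKO tumors 2 and 3 (adjusted p = 0.0974 and 0.118). That of Tgfbr1 was also lost without any one of 7 of the tumors, control 1, 2, 4 and 5 and Villin-WlscKO 1, 3 and 5 (adjusted p up to 0.0866), and that of Smad2 without control 5 or Villin-WlscKO 2, 3 or 4 (adjusted p up to 0.0665). Tgfbr2, the most abundant of this branch, was at 42.2 and 48.6 FPKM (adjusted p = 0.0883).

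**Figure D4:**
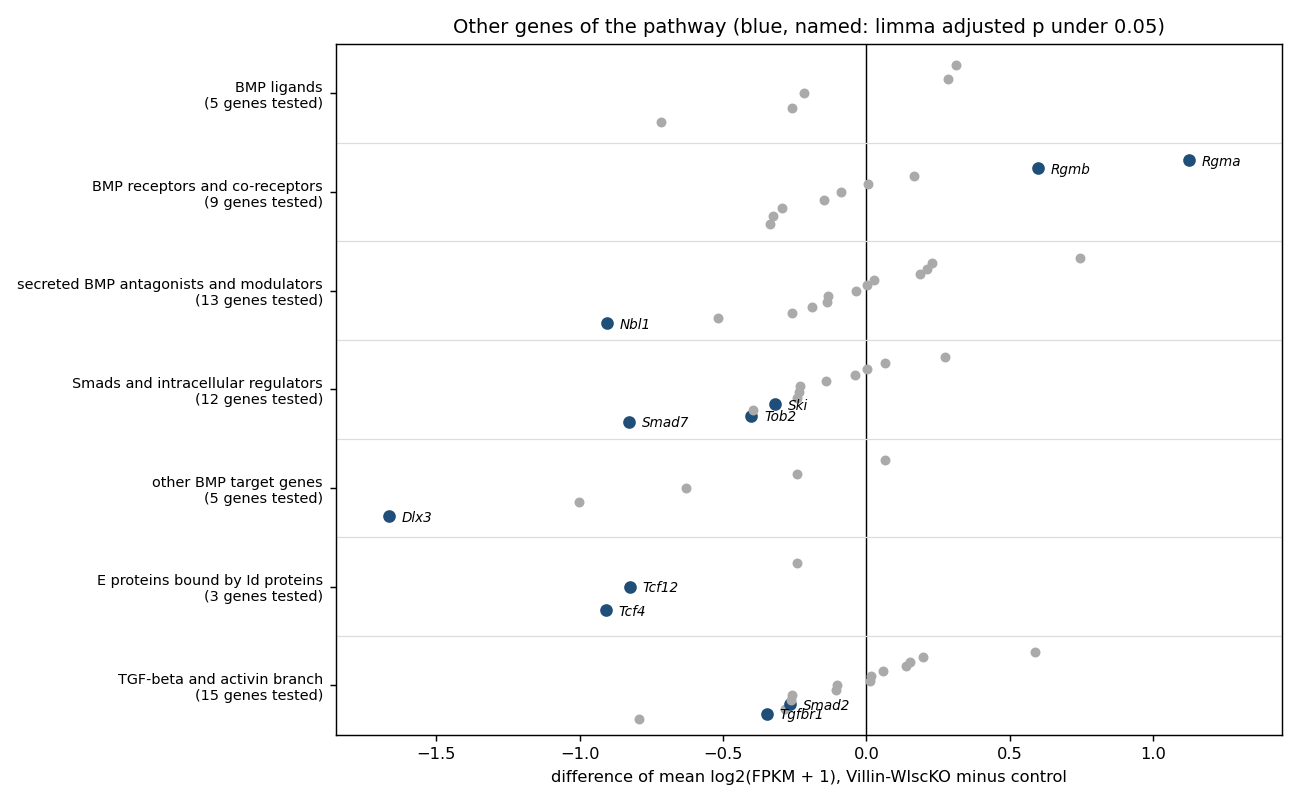
Each point is 1 gene of a list by role, placed by its Villin-WlscKO mean of log2(FPKM + 1) less its control mean (x axis), with genes past a limma adjusted p of 0.05 in blue and named. Named points lie on the left for antagonists, Smads, target genes, E proteins and the TGF-beta branch, and on the right only for the co-receptors Rgma and Rgmb.

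The genes whose profile over the 10 tumors was most like those of Id1 and Grem1 were found by the root mean square difference of log2(FPKM + 1) centered on each gene's mean. For Id1, whose own root mean square spread was 0.199, they were Traf4 (0.0675), Deaf1 (0.0697) and Gtpbp1 (0.0704). For Grem1, with a spread of its own of 0.820, they were Gm16175 (0.342), Sulf1 (0.356) and Gm25745 (0.364). Sulf1, which encodes a sulfatase acting on heparan sulfate, was at 1.15 to 3.40 FPKM in controls and 1.79 to 7.73 FPKM in Villin-WlscKO tumors and did not pass (limma adjusted p = 0.136).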

How the data were processed

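Messenger RNA of 10 macrodissected colon tumors was sequenced from stranded libraries. The authors ran FastQC on the reads, used TopHat2 2.1.1 for mapping to GRCm38.p5, and quantified transcripts with Cufflinks 2.2.1 and Cuffdiff. The deposited values are FPKM per gene name and tumor, so read depth and counting error are unknown, and 277 low genes searched for whole-read steps gave none. All 10 columns were assigned to tumors and 0 were left over. FPKM summed to 1265992 to 1533885 in controls and 1207683 to 1341494 in Villin-WlscKO tumors, and Eef1a1 alone took 16.5% to 20.5% and 11.1% to 14.9% of it, so scaling was varied. None of the 10 genes shared all its values with another name. In the whole table, 2419 of the 16875 names did, and they were not merged, so shares of all genes count names.

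The groups were compared on log2(FPKM + 1) with limma 3.58.1 (R 4.3.3), after genes whose mean FPKM was under 0.5 had been dropped, with an eBayes variance trend and Benjamini-Hochberg adjustment over 16757 genes, threshold 0.05. The study used Cuffdiff, which needs reads. A log2 difference on this scale understates the change of low genes. Exact permutation tests used numpy 2.4.6, summaries used pandas 2.3.3 and figures used matplotlib 3.10.9, under Python 3.11.15. Gene positions come from GENCODE M21 (GRCm38) and promoter windows are those of RefSeq. Alternatives were another pseudocount, 3 scalings, 2 filters, no variance trend, tumor quality weights, a replicate block, each tumor left out, Villin-WlscKO tumors 2 and 3 left out together, and ratios of mean or median FPKM. Named were the 10 genes, every gene past the threshold and the most abundant gene of each list, checks of the labels, and the 3 closest profiles to Id1 and to Grem1. Bmpr2, Acvr1, Acvr2b, Chrdl2, Nog, Smad1, Smad5, Smad9, Id4 and the called marker genes were added after their values were seen. Krt19, Col3a1 and Pdgfra were named for their shared values. The 10 genes and all lists were chosen with earlier results of these data known.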

Additional observations from a re-analysis of the deposited data

How the results depend on the processing

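Of the 10 genes, between 4 and 6 passed the threshold over all alternatives and between 5 and 6 when single tumors were left out. Over all genes, 1822 passed (1026 higher and 796 lower), 1395 were higher and 417 lower with equal FPKM sums, which moved the median log2 difference to 0.10, and 890 were higher and 1124 lower after quantile normalization. Without Villin-WlscKO tumors 2 and 3, 1101 passed, and between 1229 and 1986 passed with each tumor left out. For the wider pathway the main count was 9, with 6 to 12 over the alternatives. Bmp7 passed with median ratios (-0.42), quantile normalization (-0.45), a mean FPKM of at least 5 (-0.42) and tumor quality weights (-0.43), and ranged from -0.50 to -0.33 with each tumor left out. Id1 failed at -0.25 with equal sums and at -0.37 without Villin-WlscKO tumors 2 and 3. Bmpr1a changed sign there, at 0.033 and 0.0013. Neo1, near 0 throughout, changed sign with median ratios (-0.0023), quantile normalization (-0.033), quality weights (-0.027) and without control tumor 1 (-0.042) or 4 (-0.013) or Villin-WlscKO tumor 3 (-0.014) or 5 (-0.056). Its range with each tumor left out was -0.056 to 0.047. The cause was not tested. The replicate numbers did not pair the tumors, with correlations of same-numbered deviations of 0.0638, -0.0868, 0.0626, 0.10 and 0.162. A replicate block left 5 of the 10 genes, 8 genes of the wider pathway and 1627 of all genes past the threshold, and Rgmb lost its call (adjusted p = 0.0540). Unknown depth and 5 tumors a group limit precision, and Bmp2, Bmp4 and Grem1 have intervals too wide to exclude sizable differences.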
